A study of Mus musculus with 10 samples.

Results

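The 9 genes described here encode the transcription factor subunits and enzymes by which cells sense oxygen, and they were chosen by name among the 46603 genes of the count table: Hif1a, Epas1, Arnt, Vhl, Egln1, Egln2, Egln3, Hif1an and Kdm3a. Each name matched 1 row, and all 9 passed the filter on low counts that left 13595 genes for testing. The libraries came from sorted macrophages of 4T1 tumours, 4T1 being a mouse mammary carcinoma line, in a study of PDPN-positive macrophages in lymphatic vessel growth and matrix remodelling. Live cells carrying CD11B and F4/80 were sorted into a fraction with podoplanin (PDPN) on the surface, called PoEMs by the submitters, and a fraction without it, called non-PoEMs. With 5 tumours (numbers 1, 2, 4, 5 and 6) giving both fractions, there were 5 libraries on each side. No genotype, treatment, strain or age is given in the sources used here. The fractions therefore differ by label in surface PDPN only, and the labels name no oxygen treatment. Whether each tumour grew in its own mouse is not stated, and p-values here measure the spread between these libraries, which may be technical.

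HIF alpha subunits, encoded by Hif1a and Epas1 (HIF-2 alpha), are made continuously. When oxygen is present, the prolyl hydroxylases encoded by Egln1, Egln2 and Egln3 modify them, and the VHL protein then marks them for destruction, while FIH, the asparagine hydroxylase encoded by Hif1an, blocks their binding of co-activators. When oxygen is low, alpha subunits pair with ARNT and switch on genes of glycolysis, vessel growth and pH control, together with some of their own regulators, Egln1, Egln3 and Kdm3a among them. In macrophages this pathway is best known for its part in glycolysis and in arginase and nitric oxide synthase expression. The counts describe transcripts, whereas the alpha subunits are regulated mainly as proteins.

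HIF dimers bind a core of the letters ACGTG or GCGTG. The 250 bases before the annotated start site are shown for Egln1, Egln3 and Arnt, because these are the members whose transcript differed between fractions and for which the RefSeq promoter table (GRCm38.p6) held a window. The window for Egln3 is chr12:54203875-54204124 on the minus strand, that for Egln1 is chr8:124949255-124949504 on the minus strand and that for Arnt is chr3:95434140-95434389 on the plus strand. Capitals mark each match to the core on either strand, read 5′ to 3′ on the strand of the gene.
Egln3: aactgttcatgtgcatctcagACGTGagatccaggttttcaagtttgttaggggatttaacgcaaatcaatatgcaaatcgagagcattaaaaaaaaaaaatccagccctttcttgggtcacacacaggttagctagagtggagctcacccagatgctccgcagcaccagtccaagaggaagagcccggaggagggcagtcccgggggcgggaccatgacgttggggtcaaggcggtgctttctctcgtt
Egln1: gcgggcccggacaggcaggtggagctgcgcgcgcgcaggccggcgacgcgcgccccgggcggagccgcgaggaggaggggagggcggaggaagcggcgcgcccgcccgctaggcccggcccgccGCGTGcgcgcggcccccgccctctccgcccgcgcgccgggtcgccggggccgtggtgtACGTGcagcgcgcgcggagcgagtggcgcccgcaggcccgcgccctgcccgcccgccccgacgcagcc
Arnt: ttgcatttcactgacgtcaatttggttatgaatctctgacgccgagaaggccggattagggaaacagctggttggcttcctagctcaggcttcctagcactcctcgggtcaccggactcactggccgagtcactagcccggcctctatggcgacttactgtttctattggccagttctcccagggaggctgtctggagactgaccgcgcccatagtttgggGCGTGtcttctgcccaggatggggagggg
The match in Egln3 began 229 bases before the start site. Egln1 held a GCGTG at 126 and an ACGTG at 68 bases, and Arnt a GCGTG at 29 bases. These start sites are those of RefSeq. In the GENCODE annotation Egln1 begins farther upstream, at 124949324 on the minus strand, so that its ACGTG lies inside the annotated gene. Windows were found for 8 of the 9 members (not for Epas1), and 6 of these 8 held at least 1 match in the window farthest upstream: Hif1a, Arnt, Egln1, Egln2, Egln3 and Kdm3a. Such short letters are common: 12679 of all 32851 windows of this length, or 38.6%, held a match on either strand. That share is over all windows, several for some genes, whereas each member was counted by its window farthest upstream. A match describes these letters and is not a measured binding site. Members with a match included genes called higher, called lower and not called, and Vhl and Hif1an held none in this window.

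Library totals ran from 12597829 to 15406722 counts, so that 1 count was worth 0.0649 to 0.0794 CPM (counts scaled to the library total), and each member had between 164 and 8561 counts in a library. Pdpn, the sorted marker, was 3.48 ± 0.24 higher on the log2 scale in PDPN-positive libraries (SE, edgeR quasi-likelihood test, adjusted p = 1.96e-05), with 19.3 ± 7.33 CPM in PDPN-negative and 214.5 ± 22.9 CPM in PDPN-positive libraries (SD, n = 5 each). Macrophage markers were abundant in both fractions, with 1 of 10 called lower and the 10 genes summing to 29941 to 35371 CPM in PDPN-negative and 29021 to 32938 CPM in PDPN-positive libraries. Markers of other cell types differed between fractions: 11 of 12 fibroblast markers were called higher in PDPN-positive libraries, where they summed to 329.8 to 537 CPM against 38.9 to 51.3. Neutrophil markers summed to 240.6 to 336 CPM without PDPN and 119.7 to 147.5 CPM with it, with 7 of 8 tested called lower and 1 higher. The corresponding sums for eosinophil markers (4 of 5 called lower) were 58.6 to 149 and 4.76 to 14.4 CPM. Fewer of the monocyte markers (3 of 8) were called lower, with sums of 1498 to 2261 and 1382 to 1554 CPM, and the T and NK cell markers summed to 16.0 to 42.8 and 9.42 to 17.2 CPM. Carcinoma epithelial markers, of which 0 of 7 were called with the fraction as the only term in edgeR or in DESeq2 (2 lower at an unadjusted edgeR p under 0.05) and 1 higher and 2 lower in edgeR with the tumour as a block, overlapped between fractions, at 83.9 to 217 and 98.3 to 264 CPM. Single genes carried some of these sums. Cd4, the only 1 of 8 T and NK cell markers tested, averaged 21.1 and 10.5 CPM. Cdh1 held the largest part of the carcinoma sum (means 75.9 and 124 CPM). Cdh1 and Krt14 were higher in all 5 PDPN-positive libraries than in their paired ones, whereas Epcam, Krt8 and Cldn4 were lower in all 5. No marker on these lists was at 0 in every library. The part of these cell types in the results below was not tested, and in sorted pools such as these fewer cells of a type and less RNA per cell cannot be told apart.

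**Figure D1:**
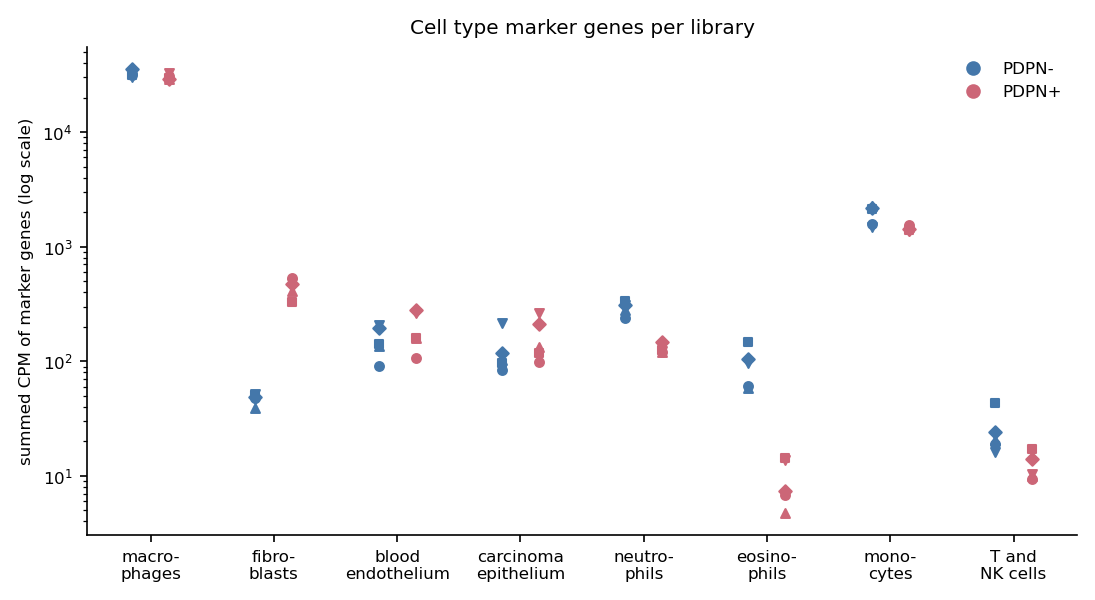
Summed CPM (log axis) of the marker genes of 8 cell types, 1 point per library, with PDPN-negative libraries in blue and PDPN-positive libraries in red and the point shape giving the tumour. Macrophage markers lie near the top in both fractions, fibroblast markers are higher and eosinophil markers lower in all 5 PDPN-positive libraries.

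Among the 9 members, transcripts of Epas1, Egln1 and Egln3 rose in the PDPN-positive fraction and that of Arnt fell, whereas those of Hif1a, Vhl, Egln2, Hif1an and Kdm3a were not called. Calls required a p under 0.05 in an edgeR quasi-likelihood fit with the fraction as its only term, after Benjamini-Hochberg adjustment over all 13595 tested genes. Thus 3 of 9 members were called higher, beside 6.83% of all tested genes, and 1 of 9 lower, beside 6.77%. With the tumour as a block, 3 members were called higher and 2 lower (Arnt and Egln2), beside 13.8% and 14.3% of all genes. The 4 members called without the block, 3 higher and 1 lower, had fractions whose CPM ranges did not overlap. This was so for 5.38% (higher) and 5.13% (lower) of all tested genes. The median log2 fold change of all tested genes was 0.01.

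**Figure D2:**
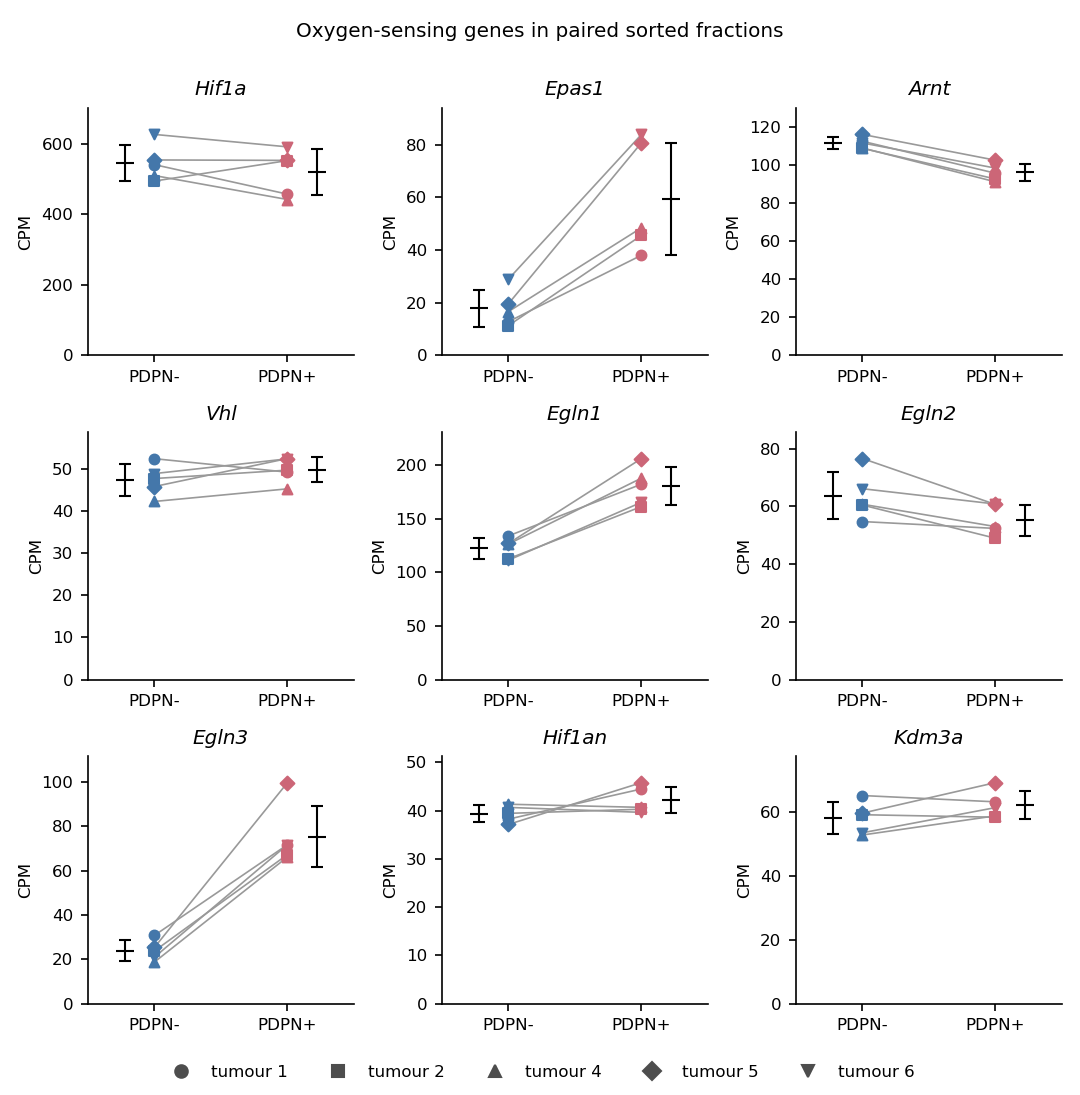
CPM of the 9 members in each library (vertical axis, linear from 0, a scale for each gene), with a line joining the 2 fractions of a tumour, and mean with SD of each fraction beside the points. Lines rise in all 5 tumours for Epas1, Egln1 and Egln3, fall in all 5 for Arnt and Egln2, and cross or run level for the others.

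Hif1a (ENSMUSG00000021109, chromosome 12, 73901375 to 73947530 of GRCm38, plus strand), the alpha subunit found in nearly all cells, was the most abundant member per length. It measured 540.4, 494, 509.5, 554 and 626 CPM in the PDPN-negative libraries of tumours 1, 2, 4, 5 and 6, and 457, 552, 442, 553 and 591 CPM in the PDPN-positive ones. Both fractions were highest in tumour 6, the ranges overlapped, and only tumour 2 had the higher value in its PDPN-positive library. The log2 fold change, PDPN-positive over PDPN-negative throughout, was -0.07 ± 0.09 (SE, 95% interval -0.27 to 0.13, edgeR adjusted p = 0.67). The fit cannot tell the values inside that interval apart, and the interval is not a limit of detection. An annotated antisense gene, Gm15283, shares 330 bases of exon with Hif1a and had 134 counts in all libraries together.

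Epas1 (ENSMUSG00000024140, chromosome 17, 86753700 to 86833410, plus strand), the alpha subunit best known from endothelium and also found in macrophages, showed the largest fitted increase among the members. It measured 12.8, 11.3, 16.6, 19.6 and 29.0 CPM in PDPN-negative libraries, in the same tumour order, and 38.0, 45.6, 48.4, 80.7 and 83.8 CPM in PDPN-positive ones. Every PDPN-positive library exceeded every PDPN-negative one, and tumours 5 and 6 were highest in both fractions. Mean levels were 17.9 ± 6.996 and 59.3 ± 21.3 CPM (SD, n = 5 each), a 3.32-fold increase (log2 1.73 ± 0.31, SE, 95% interval 1.02 to 2.44, edgeR adjusted p = 0.00688). The log2 difference within a tumour ran from 1.53 to 2.03, and with the tumour as a block the interval was 1.55 to 1.92 (edgeR adjusted p = 4.03e-08).

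Because Epas1 is also an endothelial and stromal gene, its values were set beside those markers. Of 12 endothelial markers, 5 passed the filter and 1 was called higher, or 2 with the tumour as a block, and together the 12 gave 91.2 to 208 CPM without PDPN and 107 to 283 CPM with it. Pecam1, which myeloid cells also express, made up 64.5% to 87.6% of that sum and was, like Epas1, highest in tumours 5 and 6 of both fractions. All 5 tumours had more of it in the PDPN-positive library, and it was called with the tumour as a block (log2 0.44, edgeR adjusted p = 0.000147) but not without it (0.48, edgeR adjusted p = 0.451). The other 11 markers summed to 28.5 to 51.6 CPM without PDPN and 32.2 to 48.0 CPM with it, which overlapped, and Cdh5, an adhesion molecule of endothelial junctions, lay between 3.13 and 6.67 CPM in all libraries. Kdr held the largest part of this sum (means 29.6 and 23.9 CPM) and was not called (log2 -0.31, edgeR adjusted p = 0.491). The marker called in both fits was Vwf, at 2.28 and 3.76 CPM (log2 0.72, edgeR adjusted p = 0.0114). Like Epas1, Vwf was higher in all 5 tumours. Tie1 was not called (log2 0.34, edgeR adjusted p = 0.228). Fibroblast markers, like Epas1, were higher in the PDPN-positive fraction. There they summed to 537, 329.8, 406, 476 and 478 CPM in tumours 1, 2, 4, 5 and 6, beside 38.0, 45.6, 48.4, 80.7 and 83.8 CPM of Epas1. Tumours 2, 4, 5 and 6 had the same order in both, and tumour 1 had the highest fibroblast sum and the lowest Epas1 level. The part of either cell type in the Epas1 values was not tested.

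Per kilobase of exon, Epas1 was the rarer alpha transcript in every library. The log2 ratio of Epas1 to Hif1a per kilobase was -5.32, -5.37, -4.86, -4.74 and -4.36 in PDPN-negative libraries and -3.51, -3.52, -3.11, -2.70 and -2.74 in PDPN-positive ones. The fractions did not overlap. Their means of -4.93 ± 0.42 and -3.12 ± 0.40 (SD, n = 5 each) differed by 1.81, and the difference was 1.62 to 2.04 within the 5 tumours. The two-sided p of an exact permutation test was 0.00794, the smallest that 5 against 5 libraries allow, also after adjustment over the 3 ratios tested. The exact paired test gave p = 0.0625, the smallest that 5 pairs allow.

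Arnt (ENSMUSG00000015522, chromosome 3, 95434388 to 95497240, plus strand), the beta subunit that both alpha subunits need, fell by a small amount. It measured 112, 109, 109, 116 and 111 CPM in PDPN-negative libraries and 95.6, 92.6, 91.1, 102 and 98.3 CPM in PDPN-positive ones. All 5 PDPN-positive libraries lay below all 5 PDPN-negative ones, with means of 96.0 ± 4.55 and 111 ± 2.99 CPM (SD, n = 5 each). The log2 fold change was -0.22 ± 0.05 (SE, 95% interval -0.32 to -0.11, edgeR adjusted p = 0.014), and tumour by tumour it was -0.26 to -0.18. The call stood when any single library was left out, but not without both libraries of tumour 2 (edgeR adjusted p = 0.0587) or of tumour 4 (0.0599), at nearly the same fold change.

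Vhl (ENSMUSG00000033933, chromosome 6, 113623959 to 113631633, plus strand), the substrate receptor of the ubiquitin ligase for hydroxylated alpha subunits, measured 52.4, 47.7, 42.2, 45.8 and 48.9 CPM in PDPN-negative and 49.2, 49.7, 45.2, 52.4 and 52.4 CPM in PDPN-positive libraries. The ranges overlapped and tumour 1 went against the other 4. Its log2 fold change was 0.07 ± 0.07 (SE, 95% interval -0.07 to 0.22, edgeR adjusted p = 0.538), an interval that leaves out a change of the size seen for Egln1.

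The prolyl hydroxylase genes did not move as a group: Egln1 and Egln3 rose, and Egln2 was lower in every tumour. Egln2 was called with the tumour as a block but not with the fraction as the only term. Egln1 (ENSMUSG00000031987, chromosome 8, 124908587 to 124949324, minus strand) encodes PHD2, the hydroxylase that sets HIF1A stability in most cells. It measured 134, 113, 126, 127 and 111 CPM in PDPN-negative libraries and 182, 161, 188, 206 and 165 CPM in PDPN-positive ones, with no overlap. The rise was 1.48-fold (log2 0.56 ± 0.08, SE, 95% interval 0.39 to 0.73, edgeR adjusted p = 0.000545) and lay between 0.44 in tumour 1 and 0.70 in tumour 5.

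Egln3 (ENSMUSG00000035105, chromosome 12, 54178981 to 54203860, minus strand) encodes PHD3, a hydroxylase whose own gene is a known HIF target. It measured 30.8, 23.8, 18.8, 25.4 and 21.0 CPM in PDPN-negative libraries and 71.7, 67.3, 66.2, 99.7 and 71.7 CPM in PDPN-positive ones. The fractions were far apart, the lowest PDPN-positive value lying above the highest PDPN-negative one, and tumour 5 stood above the other PDPN-positive libraries. Mean levels were 23.9 ± 4.60 and 75.3 ± 13.9 CPM (SD, n = 5 each), a 3.15-fold rise (log2 1.65 ± 0.15, SE, 95% interval 1.33 to 1.97, edgeR adjusted p = 4.19e-05). Without the PDPN-positive library of tumour 5 the log2 fold change was 1.53 (edgeR adjusted p = 2.09e-05). Within tumours the difference was smallest in tumour 1, at 1.22, where the PDPN-negative level was highest, and largest in tumour 5, at 1.97.

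Egln2 (ENSMUSG00000058709, chromosome 7, 27158658 to 27166802, minus strand) encodes PHD1, the hydroxylase of this family that is mainly nuclear. It measured 54.7, 60.5, 60.7, 76.6 and 66.1 CPM in PDPN-negative libraries and 52.4, 48.9, 53.0, 60.7 and 60.8 CPM in PDPN-positive ones. The ranges overlapped, yet the PDPN-positive library was the lower one in 5 of 5 tumours, as it was for 17.6% of all tested genes. The log2 fold change was -0.21 ± 0.09 (SE, 95% interval -0.41 to -0.01, edgeR adjusted p = 0.155). With the tumour as a block the value stayed at -0.21 ± 0.05 (SE) and was called (edgeR adjusted p = 0.0107), and tumour by tumour it ran from -0.34 in tumour 5 to -0.06 in tumour 1. Without tumour 2 the blocked fit gave -0.18 (edgeR adjusted p = 0.0596).

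**Figure D3:**
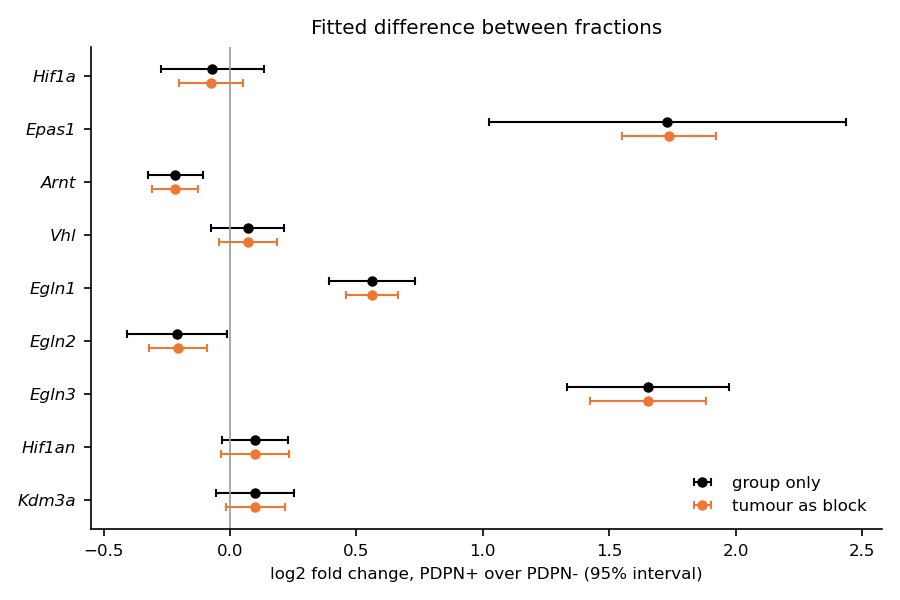
Fitted log2 fold change (PDPN-positive over PDPN-negative) of each member with its 95% interval, from the fit with the fraction alone (black) and with the tumour as a block (orange). Intervals of Epas1, Egln1 and Egln3 lie above 0 and those of Arnt and Egln2 below 0 in both fits, although the p of Egln2 in the fit with the fraction alone did not pass after adjustment over all genes (0.155).

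The make-up of the hydroxylase transcripts differed accordingly. In CPM per kilobase of exon, Egln3 made up 16.9%, 14.4%, 11.0%, 13.2% and 12.6% of the summed level of Egln1, Egln2 and Egln3 in PDPN-negative libraries, and 28.0%, 28.8%, 25.9%, 32.2% and 28.5% in PDPN-positive ones. The fractions did not overlap, and the mean share was 13.6% ± 2.20 against 28.7% ± 2.26 (SD, n = 5 each). The two-sided exact permutation p was 0.00794 and the exact paired p was 0.0625, in both cases the lowest the design can give. The share of Egln1 was 51.7% ± 2.84 and 51.2% ± 2.40, in that order, whereas the share of Egln2 was 34.6% ± 3.80 without PDPN and 20.1% ± 1.66 with it. The log2 ratio of Egln3 to Egln1 was -1.93 ± 0.24 and -0.84 ± 0.17 (SD, n = 5 each), a difference of 1.10 that lay between 0.78 and 1.28 within tumours (two-sided exact permutation p = 0.00794). With the length of the longest transcript in place of all exons, the Egln3 share was 12.3% ± 2.10 and 26.9% ± 2.17.

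**Figure D4:**
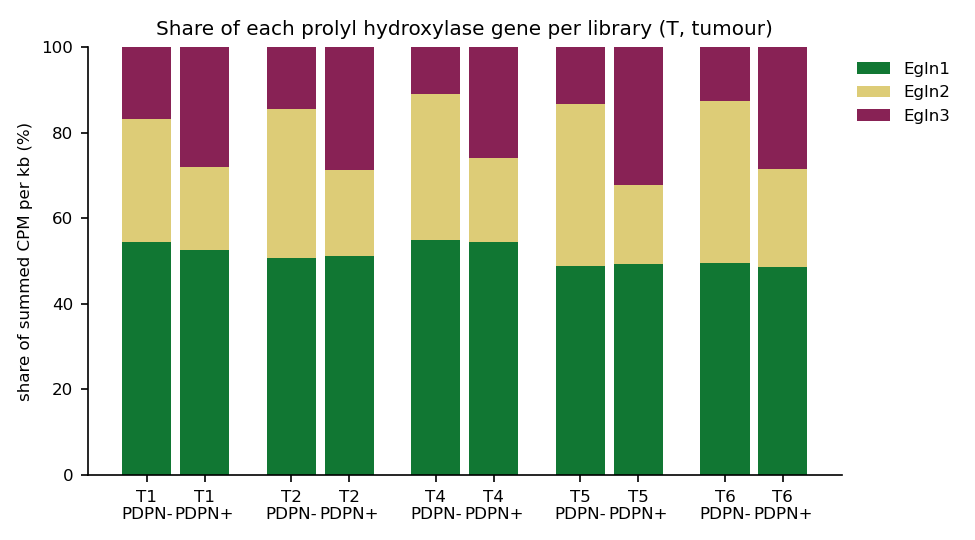
Share (%) of Egln1, Egln2 and Egln3 in their summed CPM per kilobase of exon, 1 stacked bar per library, ordered by tumour (T) and fraction. The Egln3 segment is larger in the PDPN-positive bar of every tumour, the Egln2 segment is smaller and the Egln1 segment is between 48.6% and 55.0% throughout.

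Hif1an (ENSMUSG00000036450, chromosome 19, 44562850 to 44576274, plus strand), which encodes FIH, measured 38.2, 39.4, 41.3, 37.1 and 40.7 CPM in PDPN-negative and 44.5, 40.3, 40.7, 45.8 and 39.6 CPM in PDPN-positive libraries. The ranges overlapped, and 3 of 5 tumours had the higher value in the PDPN-positive library. Its log2 fold change was 0.10 ± 0.06 (SE, 95% interval -0.03 to 0.23, edgeR adjusted p = 0.31).

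Kdm3a (ENSMUSG00000053470, chromosome 6, 71588972 to 71632990, minus strand) encodes a histone H3 lysine demethylase that depends on oxygen and is a known HIF target. It measured 65.3, 59.3, 52.9, 59.8 and 53.6 CPM in PDPN-negative libraries and 63.3, 58.5, 58.9, 69.3 and 61.5 CPM in PDPN-positive ones. The ranges overlapped, with tumours 4, 5 and 6 higher and tumours 1 and 2 slightly lower in the PDPN-positive library. Its log2 fold change was 0.10 ± 0.07 (SE, 95% interval -0.05 to 0.25, edgeR adjusted p = 0.395), so that its interval lay below those of Egln1 and Egln3.

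Ordered by level per kilobase of exon, the PDPN-negative fraction ran Hif1a (92.4 ± 8.70 CPM per kilobase, SD, n = 5 here and below), Egln1 (34.0 ± 2.74), Egln2 (22.8 ± 2.94), Vhl (15.8 ± 1.25), Arnt (13.9 ± 0.374), Egln3 (8.99 ± 1.73), Kdm3a (7.07 ± 0.617), Hif1an (5.96 ± 0.259) and Epas1 (3.20 ± 1.25). Neighbours in that order whose ranges overlapped were Vhl with Arnt and Egln3 with Kdm3a. In the PDPN-positive fraction the order was Hif1a (88.0 ± 11.1), Egln1 (50.2 ± 5.03), Egln3 (28.3 ± 5.21), Egln2 (19.7 ± 1.90), Vhl (16.6 ± 0.982), Arnt (12.0 ± 0.568), Epas1 (10.6 ± 3.82), Kdm3a (7.58 ± 0.534) and Hif1an (6.38 ± 0.420). There Egln2 overlapped with Vhl, Arnt with Epas1, and Epas1 with Kdm3a. Egln3 thus stood at place 6 in the PDPN-negative and place 3 in the PDPN-positive fraction, and Epas1 at places 9 and 7. Lengths affect this order: with the longest transcript Arnt stood above Vhl in both fractions, Kdm3a stood above Egln3 in the PDPN-negative and above Epas1 in the PDPN-positive fraction, and the ranges of Egln3 and Egln2 overlapped in the PDPN-positive one.

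The transcripts most like each member across the 10 libraries, by Pearson r of log2 CPM among 8841 genes, were read as a description. The 10 points share the fraction, the tumour and the depth of each library, and no test was made. For Epas1 they were Arg1 (r = 0.989), which encodes arginase 1, Tnfrsf26 (0.987) and Prdx6b (0.973). Egln3 was most like Gbe1, the glycogen branching enzyme (0.991), Il7r (0.987) and Ero1l, an oxidase of the endoplasmic reticulum (0.986), and Egln1 was most like Pfkl (0.986) and Pgm2 (0.984), enzymes of sugar metabolism, and Ak4 (0.983). After the mean of each fraction was taken out, r was 0.953 for Epas1 with Arg1, 0.959 for Egln3 with Gbe1 and 0.912 for Egln1 with Pfkl. It was 0.804 for Egln3 with Il7r and 0.832 for Arnt with Gadd45b. All these genes were picked by their r in the same libraries, so high values follow in part from that choice. Arnt was most like Gadd45b (0.971), Csrnp1 (0.969) and Nfkbib (0.968). The genes most like Egln2 were Rreb1 (0.980), Cdc42ep4 (0.975) and Ppm1a (0.969). For Hif1a they were C1rl (0.917), Olr1 (0.907) and Adamdec1 (0.899), and for Vhl Gcnt2 (0.979), Stk38l (0.934) and Dtx3 (0.927). Hif1an was most like Cfap20 (0.951), Ugdh (0.931) and Gpank1 (0.900), and Kdm3a most like Tcf25 (0.931), Fnip1 (0.909) and Tgfb3 (0.906).

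The remaining HIF subunits were barely detected. Hif3a had 7 counts in the 5 PDPN-negative and 4 in the 5 PDPN-positive libraries, and Arnt2 had 35 and 28, both below the filter. In the list of other subunits and co-activators, 12 of 15 genes were tested, with a median log2 fold change of -0.10. Of these, 1 was called higher and 1 lower (edgeR, group only), beside 6.83% and 6.77% of all genes. Pkm, a pyruvate kinase of glycolysis that also serves as a HIF co-activator, rose by 0.68 on the log2 scale (edgeR adjusted p = 0.000116). The histone acetyltransferase gene Crebbp was the lower one, at -0.19 (edgeR adjusted p = 0.045), a call that was lost in 8 of the 10 fits without a single library. With the tumour as a block, Cited2 and Trim28 were also called higher and Ep300 and Ncoa1 also lower. That gave 3 each way, beside 13.8% and 14.3% of all genes.

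The list of genes of the VHL ubiquitin ligase and of alpha subunit turnover held 20 genes, all tested, of which 2 were called higher and 1 lower, beside 6.83% and 6.77% of all genes, with a median log2 fold change of 0.02. Siah2, a ubiquitin ligase that targets EGLN proteins, fell by 0.38 on the log2 scale (edgeR adjusted p = 0.00429). Fkbp8, an anchor of EGLN1 protein, was higher by 0.29 (edgeR adjusted p = 0.0345) and the chaperone gene Hsp90ab1 by 0.21 (edgeR adjusted p = 0.0384), but these calls were lost in 6 and 8 of the 10 fits without a single library. Blocking by tumour gave 4 higher and 3 lower calls, beside 13.8% and 14.3% of all genes.

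EGLN proteins belong to a wider family of oxygenases that use iron and 2-oxoglutarate, and most of the other members of this family were not called. Of 38 genes listed, 34 were tested, with 5 called higher, 5 lower and a median log2 fold change of -0.01, beside 6.83% and 6.77% of all genes called. With the tumour as a block 7 were called higher and 9 lower, beside 13.8% and 14.3%. P4ha2, a collagen prolyl hydroxylase, rose from 4.59 to 17.1 CPM (log2 1.90, edgeR adjusted p = 0.000175). The other higher calls were P4ha1 (log2 0.37) and Plod1 (0.28), also enzymes of collagen, Kdm5b (0.46), a histone demethylase, and Jmjd8 (0.24). The calls of P4ha1, Plod1 and Jmjd8 were lost in 7, 8 and 2 of the 10 fits without a single library. The fibroblast marker sum also differed between fractions (329.8 to 537 against 38.9 to 51.3 CPM), and their part in the collagen enzymes was not tested.

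Among the lower calls, Kdm6b, a demethylase of histone H3 known from inflammatory activation of macrophages, fell from 708 to 400.2 CPM (log2 -0.82, edgeR adjusted p = 0.00105). Kdm7a fell by 0.41 (edgeR adjusted p = 0.000837) and Tet3, which oxidises methylated cytosine, by 0.36 (edgeR adjusted p = 0.00542). Kdm3b (log2 -0.25) and Kdm6a (-0.21) were also called, but not in 8 and 6 of the 10 fits without a single library. The list held 14 histone demethylase genes of the Jumonji type, a subset picked by name and not a list of its own. Of these, 1 was called higher and 4 lower, beside 6.83% and 6.77% of all genes. A fitted value below 0 was found for 12 of them, while the median of all tested genes was 0.01. Kdm3a, the member of this type, lay at 0.10 and was not called.

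Known HIF target genes listed outside the 9 members rose in large part. The list was chosen with earlier results of these data known, so its counts describe the list and are not a test. P4ha1, P4ha2 and Kdm4b were also on the oxygenase list and Cited2 on the co-activator list, so the counts of these lists are not separate. All 42 were tested, 29 were called higher and 0 lower in edgeR, beside 6.83% and 6.77% of all genes (30 and 0 in DESeq2), with 1 lower at an unadjusted edgeR p under 0.05, and the median log2 fold change was 0.52, beside 0.01 over all genes. In 34 of the 42 the PDPN-positive library was higher in all 5 tumours, and in 1 it was lower in all 5, beside 17.4% and 17.6% of all genes. The lowest p-values were those of Aldoa, an enzyme of glycolysis (log2 0.72, edgeR adjusted p = 6.94e-05), Ak4, a mitochondrial adenylate kinase (1.38, adjusted p = 9.88e-05), Stc2, a secreted glycoprotein (1.64, adjusted p = 0.000101), and Eno1, also of glycolysis (0.59, adjusted p = 0.000123), whose near-identical copies make its count uncertain. Stc2 rested on few reads, with 67 counts in all PDPN-negative and 210 in all PDPN-positive libraries together. Targets at least 2-fold higher were 9: Adm, Nos2, P4ha2, Stc2, Arg1, Hilpda, Ak4, Ndrg1 and Bnip3. Not every target moved, since Vegfa, the main vessel growth factor, was at 0.14 ± 0.16 (SE, edgeR adjusted p = 0.602) and Pfkfb3, a regulator of glycolysis, at -0.14 (edgeR adjusted p = 0.347). With the tumour as a block, 33 were called higher and 2 lower, beside 13.8% and 14.3% of all genes. The 2 lower ones were Tfrc, the transferrin receptor, and Pfkfb4. Kdm3a, itself a known target, did not pass, in contrast to Egln1 and Egln3.

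**Figure D5:**
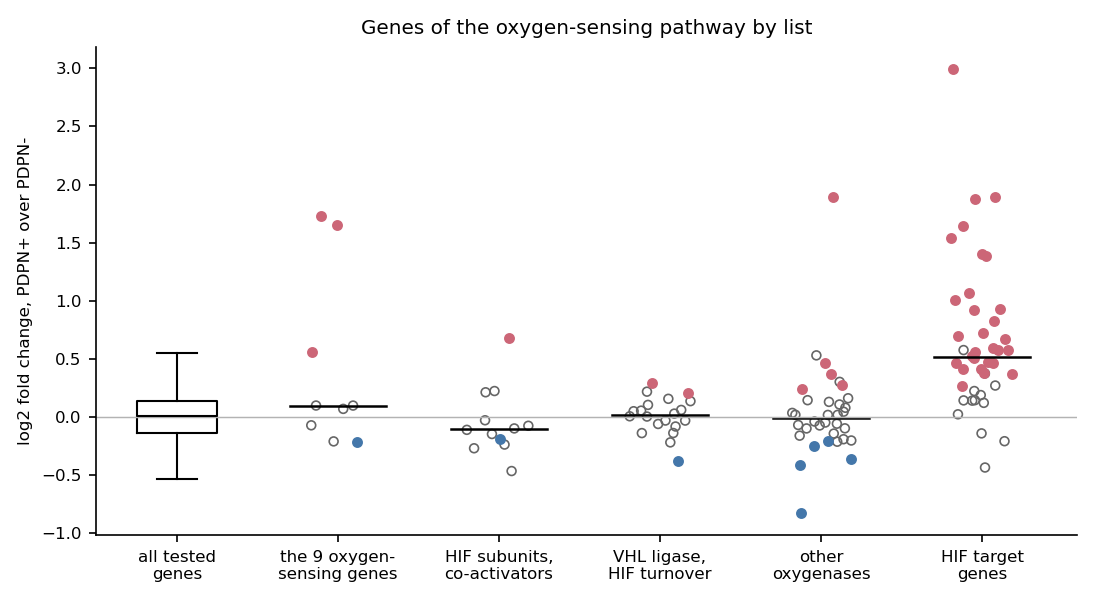
Log2 fold change (PDPN-positive over PDPN-negative) of each tested gene of the 5 lists, with filled red points for genes called higher, filled blue points for genes called lower, open points for genes not called and a black line at the median of each list. The box at the left gives the quartiles of all 13595 tested genes with whiskers at the 5th and 95th percentile, and the HIF target list has the highest median (0.52).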

How the data were processed

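RNA sequencing libraries of PDPN-positive and PDPN-negative macrophages from 5 tumours were compared. The authors deposited raw read counts per gene. RNA was pre-amplified with SMART-Seq per the labels' protocols, without molecular identifiers, so counts are reads and intervals cover counting and library spread only. The submitters' processing notes name featureCounts 1.5.3, STAR 2.5.2b, Bowtie2 2.3.3.1 and cutadapt 1.15. What each did, which genome build and annotation served, and how strand and multi-mapping reads were handled was not given in the sources used here. Counts of genes with near-identical copies and of overlapping or antisense genes are therefore uncertain. Rows without a gene held 0 counts, and 0 columns of per-sample values were left unused. No libraries of a fraction agreed within sampling noise (chi-square per gene at least 7.58).

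The tests were run in R 4.3.3 with edgeR 4.0.16: filterByExpr (minimum count 10, minimum total 15), TMM scaling and a robust quasi-likelihood fit with the fraction as the only term, with calls at 0.05 after Benjamini-Hochberg adjustment. The SE of a fold change was taken from the F statistic, as the size of the fold change over the root of F. CPM are counts scaled by TMM and library total. Log2 CPM for within-tumour differences and likeness used a prior count of 2. Exon lengths and positions came from GENCODE M21 (GRCm38), and are given for identification, since the build of the counts is unknown. Levels per kilobase used all exons of a gene. Promoter windows came from RefSeq (GRCm38.p6), cut to the 250 bases before the start site.

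Tumour numbers in the labels pair the libraries: the deviations of same-numbered libraries from their group means correlated at 0.237 to 0.499 across genes. In these deviations, 5 of 5 PDPN-negative libraries were most like the PDPN-positive library of their own tumour. The tumour was fitted as a block in an alternative. Further alternatives were DESeq2 1.42.0, other scaling, no filter, and leaving out each library or tumour. The fits were tested on simulated data.

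The members and lists were chosen with earlier results of these data known. Named were all members, up to 4 called genes of each list by lowest p, Pdpn, Itgam and Adgre1, and for each member the 3 genes most alike (mean log2 CPM 3 or more). Other genes named (Vegfa, Pfkfb3, Pfkfb4, Tfrc, Kdm5b, Kdm3b, Kdm6a, Jmjd8, P4ha1, Plod1, Cited2, Trim28, Ep300, Ncoa1, Pecam1, Cdh5, Kdr, Vwf, Tie1, Cd4, Cdh1, Krt14, Epcam, Krt8, Cldn4 and the 9 targets at least 2-fold higher) were chosen after their values were seen.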

Additional observations from a re-analysis of the deposited data

Results flagged for a closer look

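A library was looked for that lay far from the other 4 of its fraction, in 34 groups of values. Chance alone picks out about 1 in 20 such groups. Among the PDPN-positive libraries, tumour 5 was far above the others for Egln3, at 99.7 CPM against 66.2 to 71.7 CPM in the other 4. The same library also had the highest PDPN-positive level of Egln1 (206 CPM), Kdm3a (69.3 CPM), Hif1an (45.8 CPM) and Vhl (52.4 CPM), and of Arnt (102 CPM), the member called lower. Without it, Egln3 was still called higher (log2 1.53, edgeR adjusted p = 2.09e-05).

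The PDPN-positive library of tumour 6 was far above the others of its fraction for Adgre1, which encodes the sort marker F4/80, at 650.3 CPM against 484 to 521 CPM. Adgre1 was not called with all libraries (log2 -0.12, edgeR adjusted p = 0.464) but was called lower without both libraries of tumour 6 (-0.26, edgeR adjusted p = 0.033). Itgam, which encodes CD11B, was called higher (log2 0.22, edgeR adjusted p = 0.0347), a call that was lost in 8 of the 10 fits without a single library.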

How the results depend on the processing

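Hif1a, Vhl, Hif1an and Kdm3a stayed uncalled, and Epas1, Egln1 and Egln3 called and higher, under all 26 alternatives run for each. Their largest adjusted p were 0.0368 for Epas1, 0.00743 for Egln1 and 0.000989 for Egln3. Arnt was called in 24 of 26, with -0.24 to -0.20 on the log2 scale when libraries or tumours were left out.

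With the tumour as a replicate block (pairing by tumour number), 1880 genes were called higher and 1950 lower, and 1445 lower in DESeq2 with the block. All 1846 genes called in both edgeR fits kept their direction. Under the block, Egln2 was called at -0.21 in edgeR (adjusted p = 0.0107) and at -0.21 in DESeq2 (0.0454). The block gave 3 higher and 3 lower co-activators, 4 higher and 3 lower turnover genes, 9 lower oxygenases and 2 lower HIF targets. Of all tested genes it called 13.8% higher and 14.3% lower. For the 3 ratios the exact paired test uses the same mean differences by construction (15.03 percentage points, 1.81 and 1.10 on the log2 scale), and its smallest p, 0.0625, cannot pass, so it says nothing of their stability.

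Leaving out libraries or tumours gave 437 to 1925 genes higher and 482 to 2016 lower. Single libraries left out gave 617 to 1047 higher and 576 to 1026 lower, and counts moved by over 1.5 times without the PDPN-negative library of tumour 2 (576 lower) or the PDPN-positive one of tumour 4 (617 higher, 588 lower). With the block and without tumours 1, 4, 5 and 6 in turn, 1505, 1447, 1398 and 1925 genes were higher, 1692, 1677, 1564 and 2016 lower, and Egln2 was called at -0.24, -0.21, -0.17 and -0.23, but it was not called without tumour 2. Over all of these Egln2 ranged from -0.26 to -0.14. List counts ranged from 1 to 3 higher and 0 to 1 lower for co-activators, 0 to 2 and 1 to 2 for turnover genes, 2 to 4 and 3 to 5 for oxygenases, and 23 to 28 and 0 to 1 for HIF targets, the last alternatives chosen after seeing the data. Ratio differences ranged from 14.2 to 15.8 points, 1.70 to 1.96 and 1.00 to 1.16. The cause of these shifts was not tested, and having fewer libraries cannot be told apart from which ones were left out. The lowest count of a member in any library was 164, for Epas1. Some other named genes were rarer, among them Stc2, with 67 counts in all PDPN-negative libraries together.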
